A study of Mus musculus with 8 samples.

Results

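The 10 genes described here encode S100 and annexin proteins, small families of calcium-binding proteins. They are S100a3, S100a4, S100a6, S100a10, S100a11, S100a13, Anxa1, Anxa2, Anxa3 and Anxa5. They were chosen by name from both families with their expression values in these same libraries in view, so every value given for them is a description. Where some of them are counted as past a test threshold, the count stands beside the share of all genes and nothing is read from it. Because some libraries hold S100a3 and S100a4 in 1 joined entry, these genes were summed as 1 unit, which leaves 9 units of the 21992 named ones in the files. All 9 were among the 11894 units that passed the filter on low values. RNA was sequenced in 8 libraries of mouse pluripotent stem cells, 2 for each of 4 groups, all grown with serum and the cytokine LIF. CDGC1 (CDGC1-P3-9) and CDGC6 (CDGC6-P5-6) are pluripotent lines made from nascent teratoma cells in newborn testis. Both are of the strain 129Sv/Dnd1ter/ter/Oct4deltaPE-GFP and the genotype Dnd1ter/ter, at passages 15 to 18. The control was the wild-type 129/Ola embryonic stem (ES) cell line E14tg2a at passages 10 to 12, and Dnd1-KD is the knockdown of Dnd1, a germ-line RNA-binding protein, in ES cells of that strain and those passages. Derivation, strain, genotype and passage differ together between the derived lines and the ES cells, so their parts in any difference cannot be told apart. Each derived group is 1 line.

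S100 proteins are small EF-hand proteins that usually form dimers and, on binding calcium, expose a surface that docks onto target proteins. Annexins bind the acidic phospholipids of membranes in a calcium-dependent way, and several of them carry an S100 dimer on their N-terminal tail. The best known pairs are Anxa2 with S100a10 and Anxa1 with S100a11. Such pairs are known for work at the plasma membrane, in repair, exocytosis and the anchoring of actin. S100a10 is unusual in that it holds its target-binding shape without calcium.

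Levels are in FPKM (fragments per length of transcript and per depth of library), so they can be compared between genes. Differences between groups are on the log2(FPKM + 1) scale with their standard error (SE), which understates the change of genes with low values. The widths of the file's own intervals imply 10.7 M to 18.0 M fragments per library, which are not counted reads. Of the single entries of the 9 units, 67 in all, the file's own interval reached from 2.57% to 26.1% of the value to either side, with a median of 5.07%. Whether both libraries of a group stem from separate cultures is not stated, so the p-values given for other genes measure the spread between libraries alone, part or all of which can be technical. In bulk RNA, fewer cells of a type and less RNA per cell cannot be told apart. Dnd1 was listed at 0 in the 6 libraries other than Dnd1-KD and was joined there with its neighbour Hars, so the knockdown was not measured. Hprt, which E14 cells are known to lack in working form, lay between 0.359 and 0.642 FPKM in the ES libraries and between 121 and 133 FPKM in the derived lines. The defining stem cell markers Pou5f1, Sox2, Nanog, Sall4 and Lin28a were present in every library.

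The 9 units did not share 1 pattern. Dnd1-KD had the highest group mean for 5 of them (S100a11, S100a13, Anxa1, Anxa2 and Anxa3), CDGC1 for 3 (S100a6, S100a10 and Anxa5) and CDGC6 for the S100a3 and S100a4 unit. CDGC6 had the lowest mean for 6 units, control for 2, and CDGC1 for S100a13 alone. The 2 derived lines lay on opposite sides of the control for S100a6, S100a10 and Anxa2, with no overlap between libraries. Libraries did not overlap for 78.8% of all units between CDGC1 and control, and for 71.3% between CDGC6 and control. How many of all units lay on opposite sides in this way was not counted. The ratio of the highest to the lowest group mean ran from 1.97 for S100a11 to 8.75 for S100a3 and S100a4.

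**Figure D1:**
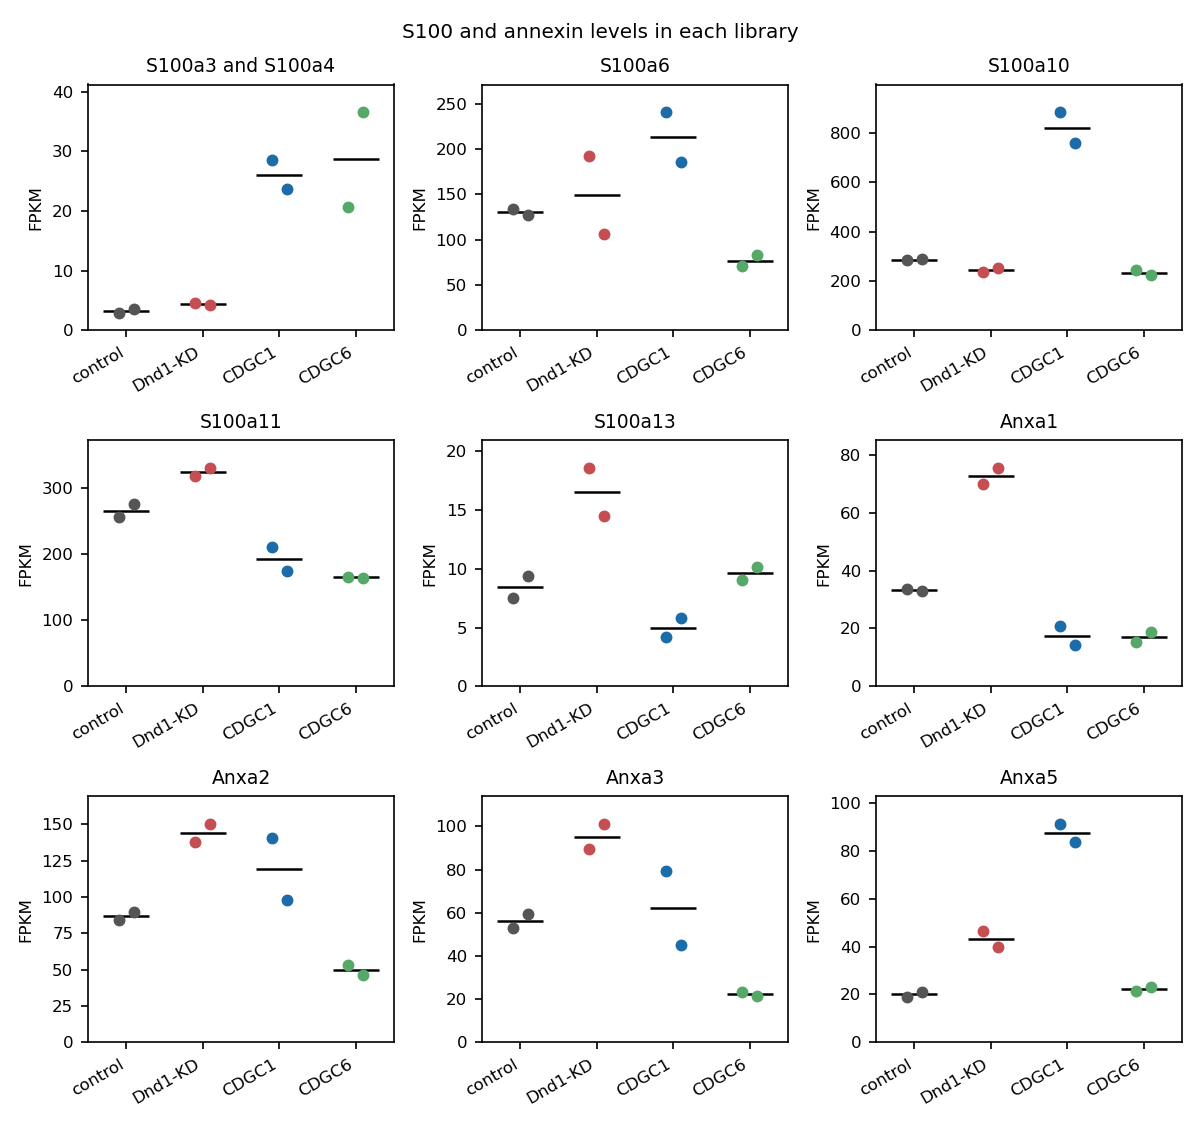
Level of each of the 9 units in FPKM (vertical axis, from 0) in the 4 groups. Each point is 1 library and each line the mean of 2. S100a10 and Anxa5 stand highest in both CDGC1 libraries, Anxa1 and Anxa3 in both Dnd1-KD libraries, and S100a3 with S100a4 in the derived lines.

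Most of the S100 genes lie in 1 cluster on mouse chromosome 3 (GRCm38, the assembly also called mm10), which spans 185 kb from S100a1 to S100a9. S100a13 (chr3:90514435-90524581, plus strand), S100a3 (chr3:90560578-90602702), S100a4 (chr3:90603771-90606045) and S100a6 (chr3:90612882-90624181) belong to it. S100a3 ends 1068 bases before S100a4 starts. S100a11 (chr3:93520488-93526287) and S100a10 (chr3:93555080-93564643) form a pair of their own 2.82 Mb further on, 28.8 kb apart. The annexins are scattered, with Anxa5 on chromosome 3 (chr3:36448923-36475894), Anxa3 on chromosome 5 (chr5:96793339-96845966), Anxa2 on chromosome 9 (chr9:69453620-69491795) and Anxa1 on chromosome 19 (chr19:20373428-20390944). All of these are protein-coding genes of the GENCODE vM21 annotation.

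Promoter sequence is shown for 3 genes, S100a4, high in the derived lines, and S100a11 and Anxa2, both highest in Dnd1-KD. The last sequence is the short gap between S100a13 and S100a1, a family gene outside the chosen set, which start head to head. The RefSeq promoter table (GRCm38.p6) held 8 of the 10 symbols in 11 windows, 4 of them for S100a3. In the 250 bases before each RefSeq start, 3 motifs were searched on both strands, and the capitals mark their matches. TGANTCA, the AP-1 motif, was in 2 of the 11 windows and in 6.7% of the 32851 promoters of the table. TATAAA was in 4 windows and in 12.4% of all promoters. GGGCGG, the GC box, was in 3 windows and in 32.7% of all promoters. No matches overlap in the windows printed. A match is a description of the sequence and not a binding site shown in these cells. The S100a4 window (chr3:90603520-90603769, plus strand) has TATAAA 31 bases before the start. The S100a11 window (chr3:93520246-93520487, plus strand) has TGANTCA 136 and 38 bases before the start and 3 GC boxes. The Anxa2 letters (chr9:69453433-69453619, plus strand) hold a GC box 190 bases and TGANTCA 95 bases before the RefSeq start. The letters of S100a11 and Anxa2 stop where the GENCODE gene begins, which leaves out 2 more Anxa2 GC boxes and its TATAAA, 17 bases before the RefSeq start. The gap (chr3:90514393-90514434, plus strand) is 42 bases long and holds 1 CG.
S100a4 promoter: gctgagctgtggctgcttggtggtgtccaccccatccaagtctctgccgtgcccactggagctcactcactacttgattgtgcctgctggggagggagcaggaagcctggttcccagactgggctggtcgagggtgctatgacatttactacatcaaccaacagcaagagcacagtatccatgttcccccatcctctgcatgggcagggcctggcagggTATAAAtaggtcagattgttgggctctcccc
S100a11 promoter: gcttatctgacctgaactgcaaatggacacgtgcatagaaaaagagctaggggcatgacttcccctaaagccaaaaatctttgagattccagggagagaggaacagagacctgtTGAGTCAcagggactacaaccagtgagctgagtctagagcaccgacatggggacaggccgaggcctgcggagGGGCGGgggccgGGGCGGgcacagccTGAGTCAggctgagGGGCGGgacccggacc
Anxa2 promoter: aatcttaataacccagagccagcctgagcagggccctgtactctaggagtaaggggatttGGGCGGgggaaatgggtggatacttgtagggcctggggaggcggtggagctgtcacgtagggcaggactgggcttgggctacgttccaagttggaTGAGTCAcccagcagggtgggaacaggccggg
S100a1 to S100a13 gap: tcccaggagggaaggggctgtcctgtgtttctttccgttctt

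S100a10 and Anxa2 encode the light and heavy chains of 1 complex, in which a dimer of S100a10 joins 2 Anxa2 molecules at the membrane. S100a10 was the most abundant of the 9 units in CDGC1, CDGC6 and control. It stood at 285 and 289 FPKM in control, 237 and 253 in Dnd1-KD, 885 and 757 in CDGC1, and 245 and 222 in CDGC6. Both CDGC1 libraries were far above the other 6, while those of Dnd1-KD and CDGC6 overlapped each other below the control. On the log2(FPKM + 1) scale CDGC1 was 1.51 ± 0.094 (SE) above control and 1.81 ± 0.094 above CDGC6. The differences of Dnd1-KD and CDGC6 from control were −0.23 ± 0.094 and −0.30 ± 0.094. With quantile normalization that of Dnd1-KD shrank to −0.046.

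Anxa2 gave 83.8 and 89.5 FPKM in control, 138 and 150 in Dnd1-KD, 141 and 97.6 in CDGC1, and 53.5 and 46.3 in CDGC6. CDGC6 was the lowest group and did not overlap any other, and the 2 CDGC1 libraries were wide apart, 1 of them within the range of Dnd1-KD. Dnd1-KD was above control by 0.73 ± 0.17 (SE) on the log2 scale and CDGC1 by 0.43 ± 0.17. CDGC6 lay below control, at −0.79 ± 0.17, and CDGC1 above CDGC6 by 1.22 ± 0.17. Leaving out 1 CDGC1 library in turn moved the CDGC1 difference from control between 0.17 and 0.69.

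The partners therefore did not keep 1 ratio. S100a10 FPKM divided by Anxa2 FPKM was 3.40 and 3.22 in control, 1.72 and 1.69 in Dnd1-KD, 6.29 and 7.76 in CDGC1, and 4.57 and 4.80 in CDGC6. No 2 groups overlapped in this ratio, with Dnd1-KD lowest, control next, then CDGC6 and CDGC1. In Dnd1-KD the heavy chain gene was higher than in control with the light chain gene slightly lower, and in CDGC1 the light chain gene differed more from control than the heavy chain gene did. S100a10 made up 64.6% and 66.0% of the summed S100 FPKM of the chosen genes in CDGC1, against 41.6% and 40.9% in control and 30.7% and 35.7% in Dnd1-KD.

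**Figure D2:**
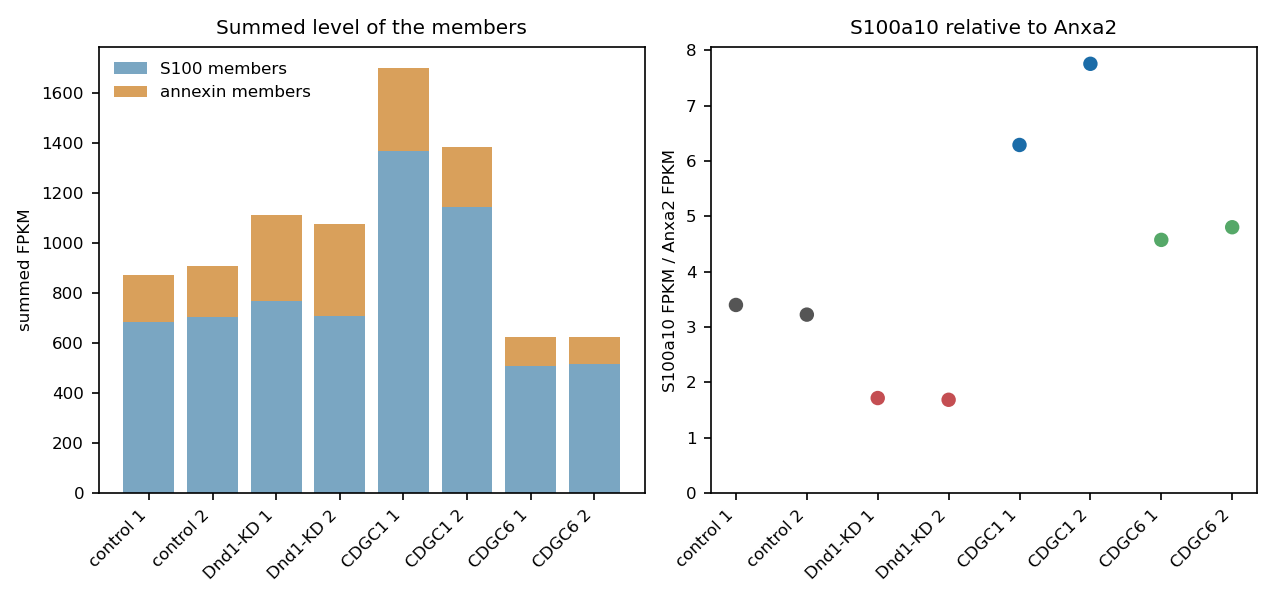
Left, summed FPKM of the S100 units and of the annexins in each library (stacked bars). Right, S100a10 FPKM divided by Anxa2 FPKM, 1 point a library. The sum was highest in the CDGC1 libraries (1701 and 1388 FPKM) and lowest in those of CDGC6 (624 and 627), and the ratio separated all 4 groups.

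S100a11, the usual partner of Anxa1, is known for roles in membrane repair and in the growth control of epithelial cells. Its values were 256 and 276 FPKM in control, 318 and 331 in Dnd1-KD, 210 and 175 in CDGC1, and 166 and 164 in CDGC6. The 4 groups followed each other without overlap, Dnd1-KD highest and CDGC6 lowest, over the narrowest range of the 9 units. Against control the log2 differences were 0.29 ± 0.096 (SE) in Dnd1-KD, −0.47 ± 0.096 in CDGC1 and −0.69 ± 0.096 in CDGC6.

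Anxa1 encodes a glucocorticoid-regulated annexin known to restrain inflammation and to bind S100a11. It was at 33.7 and 33.0 FPKM in control, 69.9 and 75.6 in Dnd1-KD, 20.8 and 14.2 in CDGC1, and 15.4 and 18.9 in CDGC6. Dnd1-KD stood above the control and the derived lines below it, the lines overlapping each other. Each of these groups lay on the same side of the control as for S100a11, and further from it on the log2 scale. On the log2 scale Dnd1-KD differed from control by 1.10 ± 0.18 (SE), CDGC1 by −0.92 ± 0.18 and CDGC6 by −0.93 ± 0.18, and the lines differed from each other by 0.010 ± 0.18.

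S100a3 and S100a4 showed the widest range of the set. S100a4 is known for binding non-muscle myosin and for its link to cell movement and mesenchymal cells, and S100a3 for hair follicle cuticle. Their summed level was 2.96 and 3.60 FPKM in control, 4.61 and 4.31 in Dnd1-KD, 28.5 and 23.7 in CDGC1, and 20.7 and 36.6 in CDGC6. Both derived lines stood far above the ES cells and overlapped each other. CDGC1 was above control by 2.66 ± 0.26 (SE) on the log2 scale, CDGC6 by 2.74 ± 0.26 and Dnd1-KD by 0.36 ± 0.26. With a pseudocount of 5 in place of 1 the first 2 values became 1.91 and 1.98, and with only the highest entry of the unit they became 2.98 and 3.17.

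The genes had entries of their own in 5 libraries, and there S100a4 made up most of the sum. S100a4 stood at 19.9 FPKM in the second CDGC1 library, 35.8 in the second CDGC6 library, 1.93 and 2.39 in control, and 3.02 in the second Dnd1-KD library. S100a3 stood at 3.85, 0.801, 1.03 and 1.21, and 1.30 FPKM in the same libraries. In these entries S100a4 was the gene that set the derived lines apart, while S100a3 was higher in the CDGC1 library than in the CDGC6 one. Fibroblast markers moved in the same lines. The summed FPKM of 12 of them was 8.11 to 8.79 in control, 11.7 to 11.9 in Dnd1-KD, 43.0 to 43.3 in CDGC1 and 28.1 to 36.0 in CDGC6. Of the 8 tested, 7 rose in CDGC1, 6 in CDGC6 and 1 in Dnd1-KD, where 23.5%, 8.46% and 20.7% of all units passed higher. Col1a1 alone was at 3.04 and 3.58 FPKM in control, 20.3 and 14.4 in CDGC1, and 9.12 and 15.2 in CDGC6. Lum, Dcn and Fap did not pass 0.57 FPKM in any library. Lum was listed at 0 in CDGC6 and Dnd1-KD and Fap in control. The part of the 12 markers in the S100a4 result was not tested.

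S100a6, calcyclin, binds the ubiquitin ligase adaptor Cacybp and is common in fibroblasts and epithelia. Its levels were 133 and 127 FPKM in control, 193 and 106 in Dnd1-KD, 241 and 186 in CDGC1, and 70.8 and 83.2 in CDGC6. CDGC6 was below all other groups. The Dnd1-KD libraries were so far apart that they overlapped both control and CDGC1, and the entry of the first of them covers a longer stretch than in the other libraries. CDGC1 differed from control by 0.70 ± 0.28 (SE) on the log2 scale, CDGC6 by −0.76 ± 0.28 and Dnd1-KD by 0.14 ± 0.28. The last value changed sign with the Dnd1-KD library left out, −0.29 for one and 0.56 for the other. CDGC1 was 1.45 ± 0.28 above CDGC6.

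S100a13 is known for helping the release of Fgf1 and Il1a, proteins without a signal peptide. It gave 7.52 and 9.42 FPKM in control, 18.6 and 14.5 in Dnd1-KD, 4.20 and 5.82 in CDGC1, and 9.07 and 10.2 in CDGC6. Dnd1-KD was highest and CDGC1 lowest, each apart from the rest, and CDGC6 overlapped control. The log2 differences from control were 0.89 ± 0.19 (SE) in Dnd1-KD, −0.66 ± 0.19 in CDGC1 and 0.17 ± 0.19 in CDGC6. CDGC1 lay below CDGC6, at −0.83 ± 0.19, where most other units lay above.

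Anxa5 binds exposed phosphatidylserine and is widely used as a probe for dying cells. It had 19.0 and 21.1 FPKM in control, 46.5 and 39.7 in Dnd1-KD, 91.4 and 83.8 in CDGC1, and 21.5 and 23.0 in CDGC6. The groups did not overlap, with CDGC1 highest, Dnd1-KD next, and CDGC6 just above control. On the log2 scale CDGC1 was above control by 2.08 ± 0.10 (SE), Dnd1-KD by 1.07 ± 0.10 and CDGC6 by 0.15 ± 0.10. CDGC1 exceeded CDGC6 by 1.93 ± 0.10.

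Anxa3, an annexin found in neutrophils and endothelium, stood at 53.0 and 59.4 FPKM in control, 89.4 and 101 in Dnd1-KD, 79.4 and 45.1 in CDGC1, and 23.2 and 21.6 in CDGC6. Dnd1-KD was highest and CDGC6 lowest, both apart from the other groups, and the 2 CDGC1 libraries spanned the control. Dnd1-KD differed from control by 0.75 ± 0.25 (SE) on the log2 scale, CDGC6 by −1.29 ± 0.25 and CDGC1 by 0.092 ± 0.25. The CDGC1 value changed sign with the CDGC1 library left out, −0.31 for one and 0.49 for the other. The file's own interval reached 9.94% and 18.4% of the value to either side in Dnd1-KD, against 4.68% to 7.44% in the other libraries.

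In the comparison of Dnd1-KD with control, 4 of the 9 units lay past the threshold of 0.05 by limma with Benjamini-Hochberg adjustment over all units, each with a higher level. Over all 11894 units tested, 36.2% passed, 20.7% higher and 15.5% lower. Higher calls were 57.2% of these calls, but 48.9% with median-ratio scaling and 50.1% with quantile normalization. The 2 groups' libraries did not overlap for 8 of the 9, higher in Dnd1-KD for 7 and lower for S100a10, and for 79.6% of all units. The median log2 difference was 0.73 over the 9 and 0.022 over all units. Without the first control library 2 of the 9 and 11.5% of all units passed, and without the first Dnd1-KD library 2 of the 9 and 25.7%. With only these groups in the fit 7 of the 9 passed, 6 higher and 1 lower, and 49.4% of all units did. The 4 annexins summed to 189 and 203 FPKM in control and 344 and 367 in Dnd1-KD, while the S100 units summed to 685 and 705 against 771 and 709. All 5 stem cell markers fell in Dnd1-KD, to a summed 695 to 843 FPKM from 1397 to 1419. Endoderm markers summed to 3.76 to 3.86 FPKM in control and 10.7 to 11.2 in Dnd1-KD, with 3 of 4 tested higher and Ttr listed at 0 in every library. Testis somatic markers summed to 13.2 to 14.5 and 66.0 to 68.1 FPKM, with Star and Hsd3b1 listed at 0. Most of this was the smooth muscle actin Acta2, at 10.3 and 12.0 FPKM in control and 64.9 and 62.7 in Dnd1-KD. Wt1, the other of the 2 tested, was at 2.17 and 1.63 FPKM against 1.79 and 1.95. Of the 7 trophoblast markers tested, 2 passed higher in Dnd1-KD and 3 lower. Whether cells of these types were present, and their part in the annexin values, was not tested.

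For CDGC1 against control, 3 of the 9 units lay past the threshold higher and 3 lower. Of all units 50.5% passed, 23.5% higher and 27.0% lower. The higher calls were 46.6% of them, and 53.1% with quantile normalization. Libraries did not overlap for 8 of the 9, higher for 5 and lower for 3, and for 78.8% of all units. The median log2 difference was 0.43 over the 9 and −0.032 over all units. Trophoblast markers summed to 38.6 to 39.0 FPKM in control and to 92.0 to 106 in CDGC1, most of it Eomes, a gene of mesendoderm as well. Of the 7 trophoblast markers tested, 1 passed higher in CDGC1 and 2 lower. Endoderm markers ranged from 11.8 to 47.6 FPKM between the CDGC1 libraries, with Foxa2 at 8.15 and 38.6 FPKM. Of the 4 endoderm markers tested, 1 passed higher and 1 lower. The leukocyte marker Laptm5 was at 22.6 and 23.8 FPKM in control and at 0.208 and 0.413 in CDGC1. The other leukocyte markers were near 0 in every library, apart from Cd68. Cd68 was joined with Eif4a1 and other genes, so its own level was not measured. The part of such cells in the values of S100a10, Anxa2 and Anxa3 was not tested.

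For CDGC6 against control, 1 unit lay past the threshold higher and 4 lower, where 18.7% of all units passed, 8.46% higher and 10.2% lower. Libraries did not overlap for 8 of the 9, higher for 2 and lower for 6, and for 71.3% of all units. The median log2 difference was −0.69 over the 9 and −0.011 over all units. Without the second control library 1 of the 9 and 4.11% of all units passed, and without the first 2 of the 9 and 3.40%. Without the first CDGC6 library 2 of the 9 and 11.9% of all units passed, and without the second 3 of the 9 and 10.8%. As given above, 6 of the 8 tested fibroblast markers rose in CDGC6. Of the 7 trophoblast markers tested, 1 passed higher and 4 lower, and of the 4 endoderm markers tested 0 passed. Laptm5 was at 9.52 and 12.2 FPKM in CDGC6, against 22.6 and 23.8 in control. The part of such cells in the values of Anxa1, Anxa2, Anxa3 and S100a11 was not tested.

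Between the derived lines, 5 of the 9 units lay past the threshold higher in CDGC1 and 1 lower. Of all units 47.2% passed, 23.0% higher and 24.1% lower. The higher calls were 48.8% of them, and 56.6% with quantile normalization. Libraries did not overlap for 7 of the 9, higher in CDGC1 for 6 and lower for 1, and for 72.8% of all units. The median log2 difference was 1.22 over the 9 and −0.018 over all units. S100a3 with S100a4 and Anxa1 were the units whose libraries overlapped between the lines. Since 3 of the 4 comparisons share the control libraries, a low or high control value moves all 3.

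**Figure D3:**
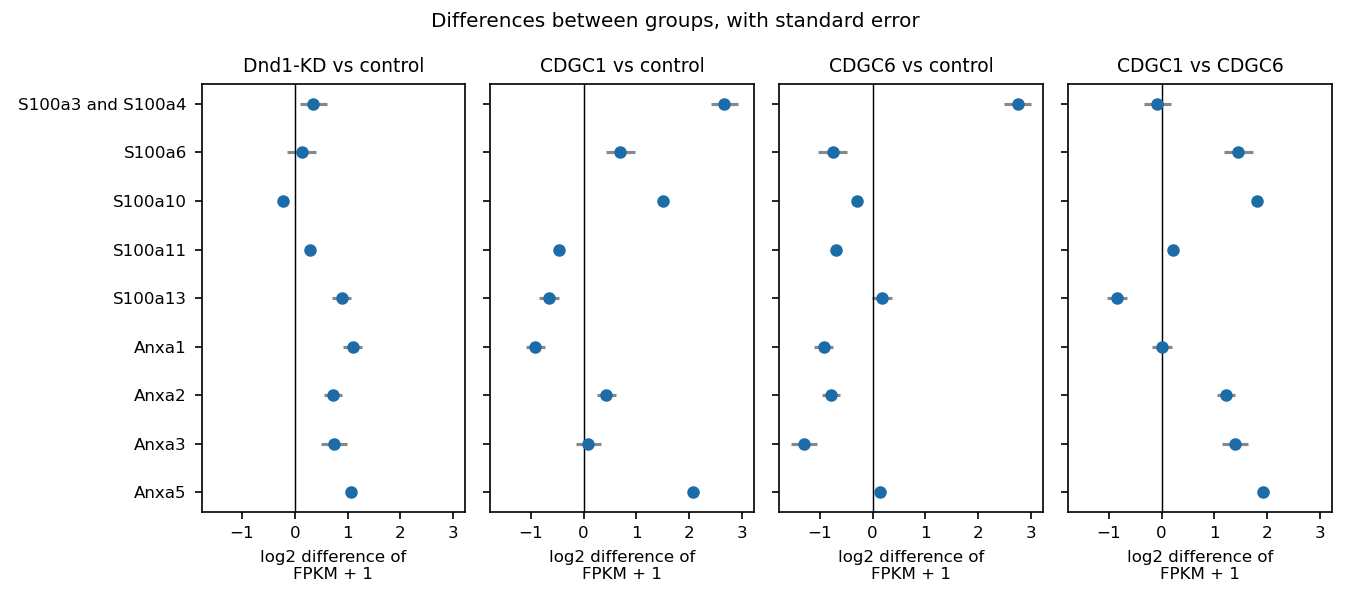
Log2 difference of FPKM + 1 of each unit (horizontal axis) in the 4 comparisons. Points are the fitted differences and bars 1 SE. In Dnd1-KD 8 of 9 points lie right of 0, the exception being S100a10 at −0.23.

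S100a1, a family gene known from heart muscle, starts 42 bases from S100a13 on the other strand. It was at 2.15 and 2.02 FPKM in control, 5.09 and 4.24 in Dnd1-KD, 5.47 and 5.58 in CDGC1, and 3.52 and 2.90 in CDGC6. Both genes of the pair were higher in Dnd1-KD than in control, S100a1 by 0.87 ± 0.12 (SE, limma with Benjamini-Hochberg adjustment, adjusted p = 0.0039) and S100a13 by the value above. In CDGC1 they went opposite ways, S100a1 higher by 1.08 ± 0.12 (limma, adjusted p = 0.00063) and S100a13 lower. S100a13 divided by S100a1 was 3.49 and 4.68 in control, 3.65 and 3.41 in Dnd1-KD, 0.767 and 1.04 in CDGC1, and 2.58 and 3.51 in CDGC6. CDGC1 stood apart from the other 3 groups in this ratio, which overlapped in part. In CDGC6 the S100a1 rise of 0.44 ± 0.12 was near the threshold (limma, adjusted p = 0.049) and missed it under 13 of 17 alternatives, with a highest p of 0.23.

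**Figure D4:**
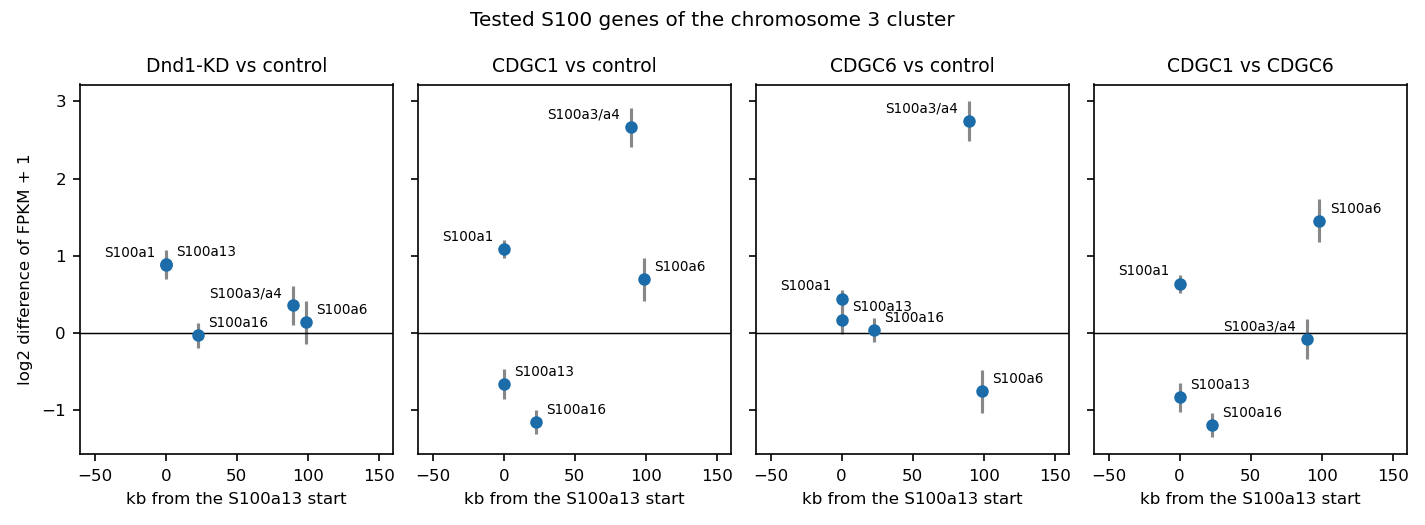
Log2 difference of FPKM + 1 (vertical axis, bars 1 SE) of the tested S100 units of the chromosome 3 cluster, by distance of their start from that of S100a13 in kb. S100a1 and S100a13 lie together in Dnd1-KD and on opposite sides of 0 in CDGC1, and S100a4 and S100a6, whose starts are at 89.3 and 98.4 kb, lie on opposite sides of 0 in CDGC6.

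Within 200 kb of the S100 cluster lie 9 other named units, of which 7 were tested. In each comparison with control 1 of the 7 rose and 1 fell. Of all units 36.2% passed in Dnd1-KD, 50.5% in CDGC1, 18.7% in CDGC6 and 47.2% between the derived lines. The one that fell was Ilf2, at 164 and 141 FPKM in control, 75.5 and 69.7 in Dnd1-KD, 97.0 and 102 in CDGC1, and 99.4 and 101 in CDGC6. Its call in CDGC6 (limma, adjusted p = 0.0099) was lost without the first control library (0.063). The one that passed higher was Snapin, which is listed at 0 in both control libraries and at 14.6 to 23.3 FPKM in the others. Its locus overlaps Ilf2, so the calls of these genes may not be separate. Between the derived lines 1 of the 7 passed, the fatty acid transport family gene Slc27a3, higher in CDGC1 by 0.85 ± 0.18 (limma, adjusted p = 0.010) and not past the threshold without the second CDGC6 library (0.057). Around S100a11 and S100a10 lie 6 other units, of which Tchh, the hair follicle gene trichohyalin, was the one tested. Tchh rose in Dnd1-KD by 0.72 ± 0.14 (SE, limma, adjusted p = 0.011) and fell in CDGC1 by 0.93 ± 0.14 (adjusted p = 0.0022) and in CDGC6 by 0.93 ± 0.14 (adjusted p = 0.010). The Dnd1-KD call was lost with a pseudocount of 0.1 and without the first control or second Dnd1-KD library, and the CDGC6 call without either control library (0.056 to 0.077 in all). Its level did not pass 3.20 FPKM in any library.

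Of the other S100 and annexin genes, 19 were listed, 18 were found and 7 had enough signal to be tested. These are what the choice of the 10 left over. In Dnd1-KD 2 of the 7 rose and 2 fell, in CDGC1 3 rose and 3 fell, in CDGC6 2 rose, and between CDGC1 and CDGC6 3 were higher and 3 lower. That is 57.1%, 85.7%, 28.6% and 85.7% of the 7, beside 36.2%, 50.5%, 18.7% and 47.2% of all units. Anxa11, known for RNA granules carried on lysosomes, was at 42.6 and 42.2 FPKM in control, 26.0 and 22.9 in Dnd1-KD, 26.6 and 27.5 in CDGC1, and 61.8 and 58.9 in CDGC6. CDGC6 was highest and both Dnd1-KD and CDGC1 were far below control. Anxa11 fell in Dnd1-KD by 0.77 ± 0.078 (SE, limma, adjusted p = 0.0019) and in CDGC1 by 0.63 ± 0.078 (adjusted p = 0.0011). Its rise of 0.50 ± 0.078 in CDGC6 (limma, adjusted p = 0.011) missed the threshold without either control library (0.083 in both cases). Between the derived lines Anxa11 differed by −1.13 ± 0.078 (limma, adjusted p = 0.00014), opposite in sign to Anxa2, Anxa3 and Anxa5.

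Anxa4, a membrane annexin of secretory epithelia, was at 11.8 and 12.1 FPKM in control, 23.6 and 23.0 in Dnd1-KD, 16.5 and 17.0 in CDGC1, and 14.2 and 11.6 in CDGC6. It rose in Dnd1-KD by 0.91 ± 0.10 (SE, limma, adjusted p = 0.0023), a size near that of Anxa1, Anxa2, Anxa3 and Anxa5. Its rise of 0.46 ± 0.10 in CDGC1 (limma, adjusted p = 0.010) was lost without the first or the second control library (0.063 and 0.053). Anxa6, an annexin with a doubled core, gave 43.2 and 43.3 FPKM in control, 34.9 and 33.7 in Dnd1-KD, 65.0 and 58.5 in CDGC1, and 38.6 and 41.1 in CDGC6. It rose in CDGC1 by 0.50 ± 0.074 (limma, adjusted p = 0.0022). Its fall of 0.33 ± 0.074 in Dnd1-KD (limma, adjusted p = 0.019) was lost without any 1 of the 4 libraries compared (0.052 to 0.10).

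Anxa7, counted with the neighbouring Mss51 because the control libraries join them, was at 34.0 and 35.7 FPKM in control, 40.7 in both Dnd1-KD libraries, 20.7 and 22.9 in CDGC1, and 38.1 and 36.8 in CDGC6. It fell in CDGC1 by 0.66 ± 0.073 (SE, limma, adjusted p = 0.00069). S100a16 fell in CDGC1 as well, to 0.615 and 0.529 FPKM from 2.77 and 2.25 in control, by 1.16 ± 0.16 (limma, adjusted p = 0.0016). Anxa8 lay between 0.948 and 1.75 FPKM and passed in no comparison (adjusted p of 0.47 in Dnd1-KD, 0.83 in CDGC1 and 0.80 in CDGC6 against control, and 0.59 between the lines). S100a8 and S100a9, the pair that fills neutrophils, were listed at 0 in all libraries apart from 0.160 FPKM of S100a8 in 1 CDGC6 library. S100a5, S100a7a, S100a14, S100b, S100g, S100z, Anxa9, Anxa10 and Anxa13 stayed at or below 0.421 FPKM in every library.

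**Figure D5:**
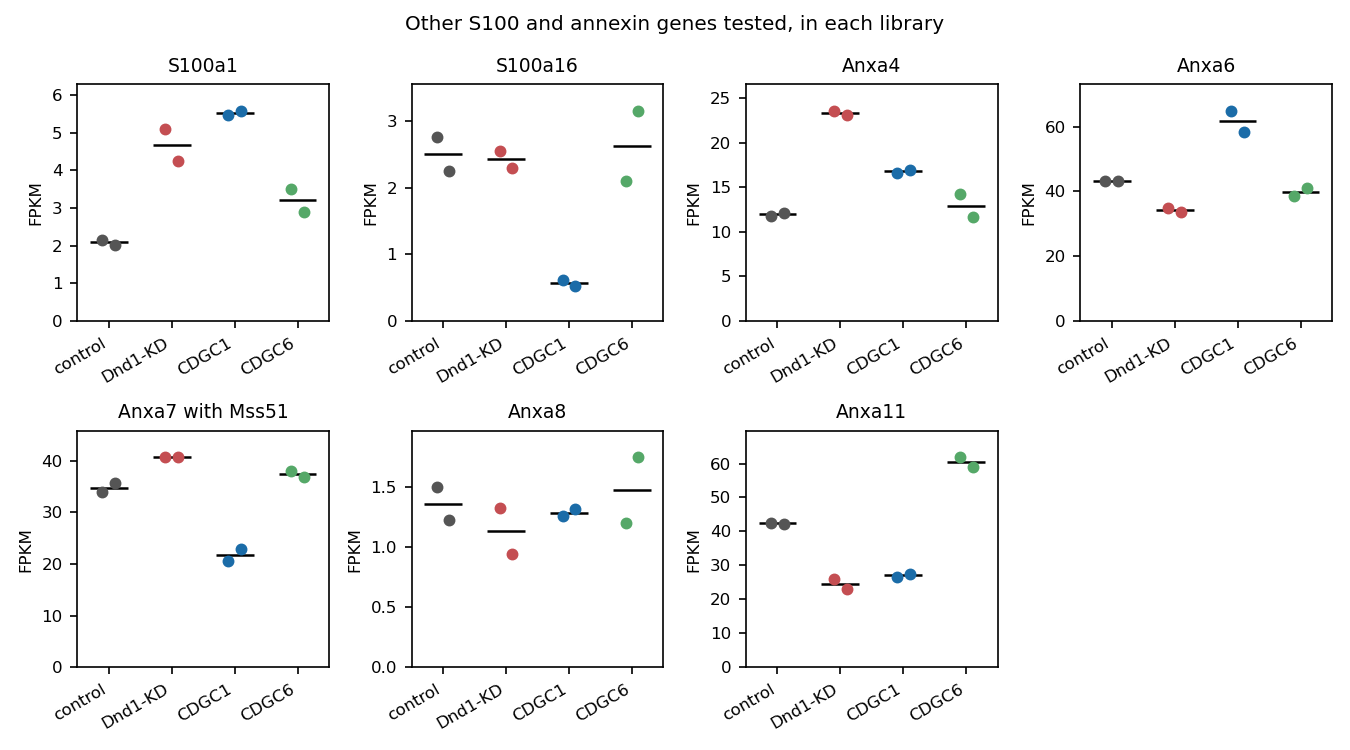
FPKM (vertical axis, from 0) of the 7 other S100 and annexin genes tested, 1 point a library and a line for the mean of 2. Anxa4 stands highest in Dnd1-KD, Anxa6 in CDGC1 and Anxa11 in CDGC6.

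Genes whose products bind S100 proteins or annexins, or act with them, formed a list of 31, of which 23 were tested. In Dnd1-KD 5 rose and 3 fell, in CDGC1 11 rose and 3 fell, in CDGC6 3 passed, each lower, and CDGC1 exceeded CDGC6 for 14 and was below it for 3. Of all units 36.2%, 50.5%, 18.7% and 47.2% passed in the same order. The partners' share was below that in Dnd1-KD (34.8%) and in CDGC6, and above it in CDGC1 (60.9%) and between the lines (73.9%). Without 1 of the ES cell libraries the count in Dnd1-KD dropped from 8 to between 1 and 4, and the share of all units to between 11.5% and 25.7%. The median log2 differences over the 23 were 0.11, 0.30, −0.099 and 0.48 in the same order. Capn2, the large subunit of a calcium-activated protease, was at 32.2 and 30.8 FPKM in control, 43.7 and 45.5 in Dnd1-KD, 47.0 and 40.7 in CDGC1, and 17.2 and 16.1 in CDGC6. CDGC6 was lowest, as for Anxa2, and the difference between the lines was 1.34 ± 0.088 (SE, limma, adjusted p = 0.00011). Its rise in Dnd1-KD of 0.49 ± 0.088 (limma, adjusted p = 0.0092) was lost without either control library or without Dnd1-KD library 2 (0.0545, 0.0641 and 0.0572). Dysf, which works with annexins in membrane repair, rose in CDGC1 by 1.24 ± 0.10 (limma, adjusted p = 0.00019), from 2.37 and 2.22 FPKM in control to 7.03 and 6.52. Hltf, a DNA helicase-like factor, and Cpne1, a copine counted with its neighbour Rbm12, rose in CDGC1 by 0.53 ± 0.077 and 0.46 ± 0.054 (limma, adjusted p = 0.0020 and 0.00089). Pdcd6ip, which takes part in membrane repair, was at 26.4 and 27.9 FPKM in control, 37.9 and 41.8 in Dnd1-KD, 33.7 and 29.6 in CDGC1, and 20.8 and 18.6 in CDGC6. Its rise of 0.54 ± 0.099 in Dnd1-KD (limma, adjusted p = 0.0099) was lost without either control library or without Dnd1-KD library 2 (0.0504 to 0.0727). Its fall of 0.44 ± 0.099 in CDGC6 (limma, adjusted p = 0.031) was lost without any 1 of the 4 libraries compared (0.0516 to 0.173) and with the replicate block (0.0526).

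The plasminogen system meets the S100a10 and Anxa2 complex at the cell surface. Plat, its tissue-type activator, rose in CDGC1 by 0.77 ± 0.11 (SE, limma, adjusted p = 0.0017), from 1.12 and 1.19 FPKM in control to 2.41 and 2.93. In Dnd1-KD Plat was at 2.01 and 2.32 FPKM, above control by 0.55 ± 0.11 (limma, adjusted p = 0.011). Without the second Dnd1-KD library that difference was 0.48. Plaur, the receptor of the other activator, fell in CDGC6 by 1.19 ± 0.12 (limma, adjusted p = 0.0026), from 38.0 and 40.7 FPKM to 16.8 and 16.6. In Dnd1-KD Plaur was below control by 0.42 ± 0.12 (limma, adjusted p = 0.036, and 0.058 with the replicate block). In Dnd1-KD the protease gene Ctsb rose by 0.83 ± 0.066 (limma, adjusted p = 0.0011), from 13.6 and 13.7 FPKM to 25.1 and 24.8. Ahnak, a giant scaffold protein that the complex holds at the membrane, was joined with an unrelated gene in 1 control library and was named after its values were seen. Its own entries gave 25.4 FPKM in the other control library, 63.5 and 68.1 in Dnd1-KD, 15.4 and 8.47 in CDGC1, and 5.68 and 5.92 in CDGC6, with no test.

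Other EF-hand genes numbered 35, and 29 were tested. In Dnd1-KD 11 rose and 4 fell, in CDGC1 15 rose and 5 fell, in CDGC6 9 rose and 4 fell, and CDGC1 was above CDGC6 for 13 and below for 3. These are 51.7%, 69.0%, 44.8% and 55.2% of the 29, where 36.2%, 50.5%, 18.7% and 47.2% of all units passed. Their median log2 differences were 0.22, 0.40, 0.14 and 0.19. Without a control library 5 rather than 13 passed in CDGC6, with 3.40% and 4.11% of all units, and 6 rather than 15 in Dnd1-KD, with 11.5% and 13.7% of all units. Myl9, a myosin light chain of contractile cells, had 16.8 and 17.9 FPKM in control, 9.32 and 9.47 in Dnd1-KD, 63.2 and 57.4 in CDGC1, and 32.7 and 29.6 in CDGC6. It rose in CDGC1 by 1.74 ± 0.084 (SE, limma, adjusted p = 2.9e-05) and in CDGC6 by 0.81 ± 0.084 (adjusted p = 0.0032) and fell in Dnd1-KD by 0.82 ± 0.084 (adjusted p = 0.0021). Its order of groups was none of those seen among the 9 units. Pls3, an actin-bundling plastin, rose in CDGC1 by 1.45 ± 0.093 (limma, adjusted p = 8.0e-05) and in CDGC6 by 0.96 ± 0.093 (adjusted p = 0.0025). Nucb1, a Golgi calcium-binding protein, rose in Dnd1-KD by 0.83 ± 0.085 (limma, adjusted p = 0.0019). Calb2, calretinin, reached 3.70 and 4.10 FPKM in CDGC6 against 0.747 and 0.675 in control, a rise of 1.52 ± 0.088 (limma, adjusted p = 0.00052).

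Further EF-hand genes were among the 4 with the smallest p in a comparison. Rcn2, a calcium-binding protein of the endoplasmic reticulum, was at 26.4 and 27.8 FPKM in control, 34.1 and 34.8 in Dnd1-KD, 71.7 and 65.2 in CDGC1, and 30.2 and 31.2 in CDGC6. The unit of the myosin light chain genes Myl6 and Myl6b was at 669 and 680, 714 and 681, 1385 and 1253, and 719 and 736 FPKM in the same order. Both were highest in CDGC1, above control by 1.30 ± 0.072 (SE, limma, adjusted p = 4.5e-05) for Rcn2 and 0.96 ± 0.070 (adjusted p = 0.00013) for Myl6 with Myl6b. Hpcal1, a neuronal calcium sensor family gene, was higher in CDGC1 than in CDGC6 by 1.17 ± 0.088 (limma, adjusted p = 0.00019). In Dnd1-KD the mitochondrial uniporter regulator Micu2 rose by 0.65 ± 0.074 (limma, adjusted p = 0.0026) and the centrin Cetn2 fell by 0.76 ± 0.089 (adjusted p = 0.0027). Micu2 was also above control in CDGC1 by 0.49 ± 0.074 (limma, adjusted p = 0.0023) and in CDGC6 by 0.48 ± 0.074 (adjusted p = 0.011). Cetn2 was above control in CDGC1 by 0.44 ± 0.089 (limma, adjusted p = 0.0077). In CDGC6 Cetn2 was above control by 0.35 ± 0.089 (limma, adjusted p = 0.044, and 0.064 with the replicate block). Ehd1, a membrane-recycling gene counted with Cdc42bpg, fell in CDGC6 by 0.72 ± 0.070 (limma, adjusted p = 0.0025) and in CDGC1 by 0.74 ± 0.070 (adjusted p = 0.00037). The lines differed in it by −0.016 ± 0.070 (limma, adjusted p = 0.87).

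Genes whose levels followed the set most closely were ranked by Pearson's r over the 8 libraries among 7542 units. These r values share the groups and libraries, were picked as the highest, and are descriptions. Closest to the mean of the 9 standardised units were Cdipt with Sez6l2 (r of 0.99), Dusp5 (0.99), Zmpste24 (0.99), Fkbp10 (0.98) and Kctd10 (0.98). That mean was highest in Dnd1-KD and the first CDGC1 library (0.480 to 0.643 SD), lower in the second CDGC1 library (0.147) and in control (−0.266 and −0.124) and lowest in CDGC6 (−0.768 and −0.660). Closest to Anxa2 were Flnc, an actin crosslinker (r of 0.99), Cdipt with Sez6l2 (0.99), Stag1 (0.99), Sec61a1 (0.99) and the keratin Krt19 (0.99). Flnc stood at 16.7 and 17.7 FPKM in control, 44.4 and 52.7 in Dnd1-KD, 36.2 and 21.5 in CDGC1, and 7.29 and 5.42 in CDGC6. Krt19 stood at 50.8 and 59.6, 83.7 and 104, 81.9 and 66.8, and 27.2 and 22.6 FPKM in the same groups. Both had the group order of Anxa2, with CDGC6 lowest.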

How the data were processed

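The FPKM values were deposited by the authors in 1 Cufflinks gene tracking table per library, per the file headers, each with an interval. The tools named in the submitters' processing notes are Bowtie, TopHat2, Cufflinks and Cuffdiff, with the build mm10. Versions and roles are not given in the sources used here.

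Entries were matched by gene symbol. Symbols joined in any library formed 1 unit in all 8, with FPKM summed. Entries without a gene name, 76.8% to 85.6% of a library's FPKM, and small RNA genes were left out. The test covered the 11894 units that reached 1 FPKM in 2 or more of the 8 libraries, 640 of them listed at 0 in some library. Groups came from the labels. Differences of log2(FPKM + 1) were fitted with limma 3.58.1 in R 4.3.3, with a mean for each of the 4 groups fitted to all 8 libraries together, a two-sided moderated test with trend, and Benjamini-Hochberg adjustment over all units. The fit was tested on simulated data of 11894 units with 200 changed, far fewer than passed in the real data. There 2-fold changes were recovered in 75.0% for Dnd1-KD, 73.5% for CDGC1 and 71.0% for CDGC6 against control, and in 74.0% between the lines. The noise was normal, with the spreads of units shuffled among them, and only units of higher average level were changed. These shares therefore do not give the power of the real comparisons.

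The members, lists and tests were chosen with earlier results of these data known. Named by rule were all members, every other tested S100 or annexin gene, up to 4 genes per list, window and comparison with the smallest p past the threshold, and the 5 units closest in pattern to the members' mean and to Anxa2. Lists covered binding partners, other EF-hand genes and markers of stem cells, fibroblasts, endoderm, trophoblast, leukocytes and testis somatic cells. Promoters are RefSeq (GRCm38.p6) and positions GENCODE vM21. Python 3.11.15 was used for tables and figures. The 17 alternatives were a replicate block, fits of only the compared groups, the highest entry of a unit in place of the sum, 2 other scalings (median-ratio and quantile), a filter of 5 FPKM or none, pseudocounts of 0.1 and 5, and each library left out.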

Additional observations from a re-analysis of the deposited data

Results flagged for a closer look

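For 3 of the chosen units both CDGC1 libraries lay above both control libraries and both CDGC6 libraries below them. CDGC1 and control libraries did not overlap for 78.8% of all units, and CDGC6 and control libraries for 71.3%. Against control, S100a6 was past the threshold in neither line, S100a10 not in CDGC6 and Anxa2 not in CDGC1. CDGC1 minus CDGC6 on the log2(FPKM + 1) scale was 1.45 for S100a6, 1.81 for S100a10 and 1.22 for Anxa2. These values are a description with no p-value, since the genes were chosen with them in view. Among the other S100 and annexin genes the lines differed by limma with Benjamini-Hochberg adjustment for 6 of the 7 tested. CDGC1 minus CDGC6 was 0.64 for S100a1 (adjusted p = 0.0060), 0.36 for Anxa4 (0.027, lost in 6 of 17 alternatives, with a highest p of 0.11), 0.62 for Anxa6 (0.0011), −1.19 for S100a16 (0.0017), −0.76 for Anxa7 with Mss51 (0.00048) and −1.13 for Anxa11 (0.00014).

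The second Dnd1-KD library holds an assembled entry without a gene name inside the S100a1 locus, at 1.54 FPKM. It was not part of the S100a1 value, which is 4.24 FPKM in that library.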

How the results depend on the processing

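The members' differences kept their size within the spread of 2 libraries in 594 recomputed values, moved beyond it in 18, and 0 of those past the threshold changed sign. Many of the 594 could not move. The filters, the fit of only the compared groups, the replicate block and leaving out a library of another group return the same difference. Leaving out a compared library shifts it by the spread of its own group. The count therefore does not measure how stable the differences are. Of the 9 units, 7 passed in Dnd1-KD with only the compared groups fitted, against 4, and of all units 49.4%, against 36.2%. Of the other S100 and annexin genes, 1 of 7 passed in CDGC6, against 2, with a pseudocount of 5, with no filter, with the filter of 5 FPKM, with only the compared groups and with the replicate block. With the replicate number as a block 7 EF-hand genes passed in CDGC6, against 13. The numbers were not taken to pair the libraries. Differences between the libraries of a group correlated from −0.054 to 0.12 between groups, highest between control and Dnd1-KD. The first libraries of these 2 groups both have more implied fragments (18.0 M and 17.7 M) than their second (12.6 M and 10.7 M). Whether these share a run is not given in the sources used here. Under the block 4, 6, 5 and 6 of the 9 units passed, as without it, in Dnd1-KD, CDGC1 and CDGC6 against control and between the lines.

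Leaving out each library in turn, the units passed over all genes ranged from 1358 to 4915 in Dnd1-KD and from 403 to 2849 in CDGC6, against 4310 and 2220. Of the 9 units, 2 to 6 passed in Dnd1-KD and 1 to 6 in CDGC6. Among other family genes 0 to 1 passed in CDGC6, among partners 1 to 10 in Dnd1-KD, and among EF-hand genes 6 to 18 in Dnd1-KD and 5 to 13 in CDGC6. Tchh differed between CDGC1 and CDGC6 by 0.57 with quantile normalization, against −0.0044, and the cause was not tested. Among single entries of the 9 units the file's own interval was widest for S100a13 in the first CDGC1 library, 26.1% of the value to either side.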
